A study of Mus musculus with 11 samples.

Results

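The 10 genes of melanosome biogenesis and transport were examined in a murine model of melanoma progression, and all had a value among the 14272 genes with a deposited value. They were taken by name, as genes with known roles in this organelle, with earlier results of these data known. They are the small GTPases Rab38, Rab32 and Rab27a, the motor Myo5a and its linker Mlph, and the subunits Hps1, Hps3, Hps4, Hps5 and Hps6 of the BLOC-2 and BLOC-3 complexes. Total RNA was sequenced from 4 cell lines. Melan-a is a line of spontaneously immortalized, nonmalignant melanocytes with an epithelial morphology, and its medium held 200 nM PMA, a phorbol ester. The pre-malignant 4C, the non-metastatic melanoma line 4C11- and the metastatic melanoma line 4C11+ were derived from melan-a by repeated blockade of anchorage and were grown without PMA, so that the medium and the step from melan-a cannot be told apart. The morphology of 4C and 4C11- is mesenchymal-like, and that of 4C11+ is again epithelial. Each line stands for 1 derivation, and its libraries are replicates of that line. There were 2 libraries for melan-a, numbered 2 and 3, and 3 for every other line.

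Melanosomes are lysosome-related organelles in which melanocytes make and store melanin. Rab32 and Rab38, which are related in sequence and partly stand in for each other, direct the delivery of melanin enzymes from endosomes to the maturing melanosome, BLOC-3 (Hps1 with Hps4) activates both, and BLOC-2 (Hps3, Hps5 and Hps6) targets the carriers. Mature melanosomes are then held at the cell periphery by Rab27a, which binds melanophilin (Mlph), which in turn binds myosin Va (Myo5a), and loss of any of these genes dilutes coat color in mice.

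All values are log2 CPM (counts per M reads) as deposited. They look quantile normalized, so a value need not equal the counts per M reads of its own library. A difference of 1 log2 unit is a doubling. "Called" refers to an adjusted p under 0.05 in limma, fitted on all genes and libraries with Benjamini-Hochberg adjustment over all genes. The depth was estimated from the deposited values and is approximate. It was 3.50 and 5.82 M reads in melan-a and between 4.07 and 7.42 M in the other lines. The melan-a libraries stood apart from each other with a Pearson correlation of 0.907 across genes, and the lowest within a line was 0.888 in 4C11-. The 8 melanocyte markers with a value summed to 1866 and 9033 CPM in melan-a and to 10603 to 12890 CPM in 4C11+, but to only 3.11 to 11.6 CPM in 4C and 4C11-, where 3 to 6 of the 8 were at 3 reads or fewer, so the defining markers of the melanocyte label of 4C were absent or nearly so. Tyr, the tyrosinase that starts melanin synthesis, had 3 and 13 reads in melan-a. Of the 4 leukocyte markers only Cd68 and Csf1r had a value. They summed to 82.9 CPM in melan-a replicate 2 against 3.90 to 8.65 CPM in all other libraries. Nearly all of the 82.9 CPM was Cd68, at 81.6 CPM, while Csf1r was at 1.32 CPM there, from 5 reads. Of the endothelial markers only Cdh5 had a value, 92.9 to 172 CPM in 4C11- and 0.11 to 16.1 CPM elsewhere, and none of the 4 keratinocyte markers had one. The part of these markers in the results was not tested, and in bulk RNA fewer cells of a type and less RNA per cell cannot be told apart.

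The 250 bases upstream of the RefSeq start sites (GRCm38.p6) were searched for the palindromic E-box CACGTG, to which basic helix-loop-helix leucine zipper factors such as Mitf bind. It was found in 4 of the 9 members with an entry (Rab32, Rab27a, Myo5a, Mlph, Hps1, Hps3, Hps4, Hps5 and Hps6), against 6.86% of all genes of the table. The windows with the E-box are given in the direction of transcription, with CACGTG in capitals, and that of Rab32 is shown because this gene varied widely between the lines and its window has no match. The E-box began 48 bases before the start of Mlph (chr1:90914850-90915099, plus strand), 15 before that of Hps3 (chr3:20035311-20035560, minus strand), 227 and 192 before that of Hps5 (chr7:46795882-46796131, minus strand) and 246 before the second start site of Rab27a (chr9:73063898-73064147, plus strand). The Rab32 window is chr10:10558208-10558457 on the minus strand.
Mlph: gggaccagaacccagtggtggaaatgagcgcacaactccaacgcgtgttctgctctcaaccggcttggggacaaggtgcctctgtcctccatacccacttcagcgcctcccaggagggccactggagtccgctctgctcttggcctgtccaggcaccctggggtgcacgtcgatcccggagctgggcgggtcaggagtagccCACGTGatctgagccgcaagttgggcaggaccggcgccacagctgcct
Hps3: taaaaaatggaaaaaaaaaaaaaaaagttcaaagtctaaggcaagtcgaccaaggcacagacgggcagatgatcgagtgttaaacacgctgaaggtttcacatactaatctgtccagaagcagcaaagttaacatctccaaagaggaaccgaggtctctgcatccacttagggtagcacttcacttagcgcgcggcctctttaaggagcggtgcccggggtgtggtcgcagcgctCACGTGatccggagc
Hps5: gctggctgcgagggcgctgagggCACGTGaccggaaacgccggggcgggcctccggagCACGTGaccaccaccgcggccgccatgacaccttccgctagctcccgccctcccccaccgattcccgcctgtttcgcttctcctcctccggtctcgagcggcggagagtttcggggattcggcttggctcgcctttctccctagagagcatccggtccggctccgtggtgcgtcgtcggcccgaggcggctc
Rab27a second start: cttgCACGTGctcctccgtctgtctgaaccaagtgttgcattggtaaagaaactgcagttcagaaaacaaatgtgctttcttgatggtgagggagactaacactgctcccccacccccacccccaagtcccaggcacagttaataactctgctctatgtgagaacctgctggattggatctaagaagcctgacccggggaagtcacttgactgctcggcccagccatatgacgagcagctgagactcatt
Rab32: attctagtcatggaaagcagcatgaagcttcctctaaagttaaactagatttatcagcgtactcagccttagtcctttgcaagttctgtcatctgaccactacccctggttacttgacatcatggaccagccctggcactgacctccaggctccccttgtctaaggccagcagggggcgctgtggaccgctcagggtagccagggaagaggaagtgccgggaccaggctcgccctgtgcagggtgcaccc
The other E-box letters searched, CATGTG on both strands, were found only upstream of the second start site of Hps1, 14 bases before it, and in 13.8% of all genes. The Sox-type letters ACAAAG were found in that same Hps1 window only and in 18.6% of all genes. These matches describe the letters in the windows and not binding.

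Across the 4 lines, the spans of the members' line means formed a graded series, with the Hps genes at its lower end. The line means of Rab38 spanned 11.74 log2 units, those of Rab32 6.15, of Rab27a 4.34, of Myo5a 2.68 and of Mlph 1.97, whereas the 5 Hps genes spanned between 0.80 and 1.24. Rab38, Rab32, Rab27a, Myo5a, Mlph, Hps3 and Hps5 had their highest mean in 4C11+ and the next in melan-a. Hps6 was also highest in 4C11+, Hps1 in 4C and Hps4 in melan-a, but the line means of these 3 genes spanned 0.80 to 1.001 and none of them was called in any of the 5 planned comparisons.

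**Figure D1:**
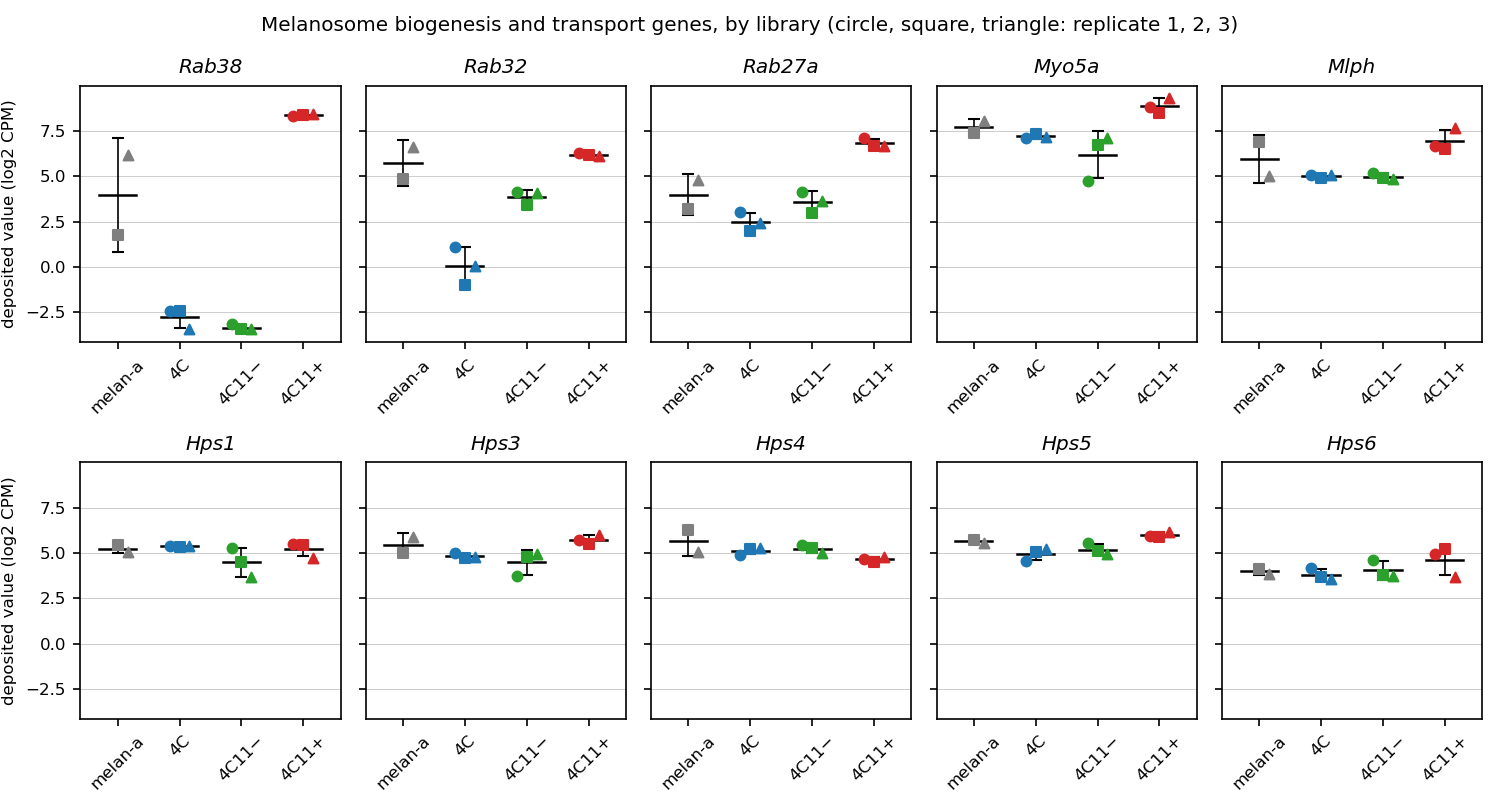
Deposited values (log2 CPM, y axis) of the 10 members in each library of melan-a, 4C, 4C11- and 4C11+ (x axis). Points are libraries, horizontal bars the mean of the line and whiskers the SD (n = 2 for melan-a and 3 for each other line). Rab38 lies between -3.44 and -2.44 in all 6 libraries of 4C and 4C11- and at 8.34 to 8.46 in 4C11+, while the line means of each Hps gene span no more than 1.24 log2 units.

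Rab38 (chromosome 7: 88430273-88491572, plus strand, GRCm38), the gene of the chocolate coat color, was at 1.77 and 6.18 log2 CPM in melan-a, at -2.44, -2.44 and -3.44 in 4C, at -3.15, -3.44 and -3.44 in 4C11- and at 8.34, 8.38 and 8.46 in 4C11+. The 4C libraries held 1, 1 and 0 reads of it and those of 4C11- none, the value of melan-a replicate 2 came from 13 reads, and the 4C11+ libraries lay close together above every other. Since the 4C and 4C11- libraries were below 3 reads, differences against them are also given with each such library set at 3 reads, which is a lower bound where all held none. With 4C at 3 reads, Rab38 was 5.23 log2 units (37.6-fold) lower there than in melan-a (fitted difference -6.75 ± 0.95 SE, adjusted p = 0.000458), and it was at least 9.97 log2 units higher in 4C11+ than in 4C11- (fitted 11.74 ± 0.85, adjusted p = 1.43e-06). It was also 4.42 ± 0.95 higher in 4C11+ than in melan-a (adjusted p = 0.0101). The size of each difference from melan-a rested on which library stood for the line. Without melan-a replicate 2 the fitted differences were -8.96 for 4C and 2.21 for 4C11+ (adjusted p = 0.0389 in limma), and without replicate 3 they were -4.54 and 6.63. Between 4C11- and 4C, no difference could be read at this depth, with both lines at the floor.

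Rab32 (chromosome 10: 10545002-10558265, minus strand) was at 4.85 and 6.64 log2 CPM in melan-a, at 1.13, -1.01 and 0.06 in 4C, at 4.16, 3.44 and 4.06 in 4C11- and at 6.29, 6.21 and 6.14 in 4C11+. Its 4C values came from 13, 4 and 6 reads. It thus fell in 4C like Rab38 and, unlike it, was well detected in 4C11-. The difference of 4C from melan-a was -5.69 ± 0.61 (adjusted p = 5.23e-05, -6.58 without melan-a replicate 2 and -4.79 without replicate 3). Of the members, Rab32 alone was called between 4C11- and 4C, where it rose by 3.83 ± 0.55, or 14.2-fold (adjusted p = 0.0041), and it rose again by 2.32 ± 0.55 from 4C11- to 4C11+ (adjusted p = 0.00735), each time without overlap between libraries. In 4C11- it lay 1.86 below melan-a, a difference that missed the threshold (adjusted p = 0.0688, 95% interval -3.20 to -0.52) and passed it without melan-a replicate 2, 4C replicate 1 or 4C replicate 2, with adjusted p of 0.0192, 0.0417 and 0.042. The 4C11+ and melan-a libraries overlapped, with a difference of 0.47 (95% interval -0.87 to 1.80).

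To set the levels of both GTPases against each other, values were divided by exon length (1577 bases for Rab38 and 2339 for Rab32). Per kilobase, Rab38 was the most abundant member in 4C11+, at a mean of 7.74 log2 units, followed by Myo5a at 5.00, Rab32 at 4.99 and Rab27a at 4.87, and it was the least abundant in 4C and 4C11-. In 4C11+, Rab38 exceeded Rab32 per kilobase by 2.62, 2.74 and 2.89 log2 units. In 4C11- the order was turned, Rab38 being at least 4.29, 4.88 and 5.50 lower than Rab32. The melan-a libraries differed in this, with Rab38 2.52 lower than Rab32 in replicate 2 and 0.11 higher in replicate 3.

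**Figure D2:**
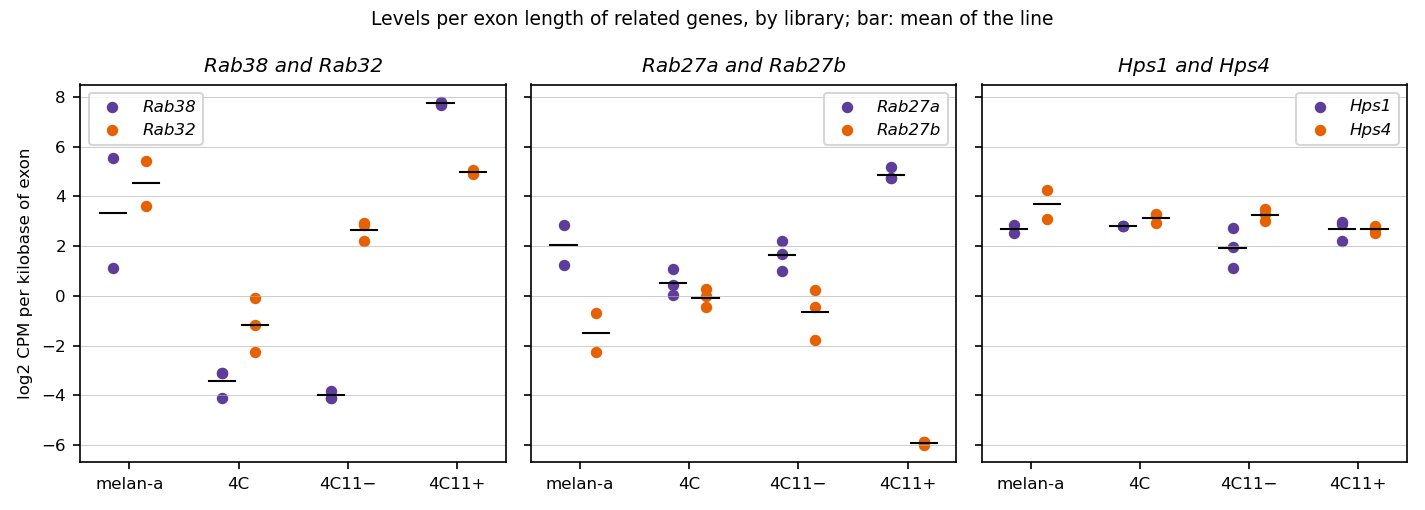
Levels per exon length (log2 CPM per kilobase of exon, y axis) of the related pairs Rab38 and Rab32 and Rab27a and Rab27b, and of the BLOC-3 partners Hps1 and Hps4, in each library by line (x axis). Points are libraries and bars the mean of the line. Rab38 lies above Rab32 in 4C11+ and far below it in 4C11-, and Rab27a lies above Rab27b in every library except 4C replicate 2, where it is 0.22 lower. The exon lengths used are 3879 bases for Rab27a and 10679 for Rab27b, on which their order in 4C depends.

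Rab27a (chromosome 9: 73044854-73097629, plus strand), which anchors melanosomes to the actin motor, was at 3.18 and 4.80 log2 CPM in melan-a, at 3.04, 2.01 and 2.41 in 4C, at 4.16, 2.97 and 3.62 in 4C11- and at 7.12, 6.69 and 6.68 in 4C11+. The 4C11+ libraries were thus all above the others, while those of the other 3 lines ran into each other except that all of 4C lay below melan-a. Rab27a rose by 3.24 ± 0.45 from 4C11- to 4C11+ (9.48-fold, adjusted p = 0.000237), and it was 2.84 ± 0.51 higher in 4C11+ than in melan-a (adjusted p = 0.00353), with 2.03 when melan-a replicate 2 was left out and 3.65 without replicate 3. The difference of -1.51 ± 0.51 between 4C and melan-a was not called (adjusted p = 0.0693), but became so without melan-a replicate 2 (-2.32, adjusted p = 0.0124) or without 4C11- replicate 1 (adjusted p = 0.0482). The processed pseudogene Gm27186 shares 149 exon bases with Rab27a on the same strand, so that reads there are uncertain. Rab27b, the close relative that can also bind melanosomes, had no read in any 4C11+ library and 0.18 CPM or less there, against 2.24 to 12.9 CPM in the other lines. Per kilobase, with exon lengths of 3879 and 10679 bases, Rab27a exceeded Rab27b by at least 7.998 to 8.42 log2 units in 4C11+ and by 1.92 and 5.10 in melan-a, whereas in 4C the difference ran from -0.22 to 1.11. Undivided, Rab27b was above Rab27a in every 4C library (10.5, 12.9 and 7.82 CPM against 8.24, 4.02 and 5.31) and in 4C11- replicate 3. It was equal in 4C11- replicate 2 and below in all other libraries, so the order in 4C depends on the lengths used.

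Myo5a (chromosome 9: 75071015-75223688, plus strand), the motor mutated in dilute mice, has the longest exon sequence of the members, 14803 bases. It was at 7.38 and 8.05 log2 CPM in melan-a, at 7.11, 7.35 and 7.19 in 4C, at 4.73, 6.76 and 7.14 in 4C11- and at 8.82, 8.50 and 9.35 in 4C11+. The 4C11+ libraries were above all others, and 4C11- replicate 1 lay far below its fellow libraries. The rise from 4C11- to 4C11+ was 2.68 ± 0.50 (adjusted p = 0.00196) and 1.94 without 4C11- replicate 1 (adjusted p = 0.000487). In that library, genes with over 8000 exon bases were shifted by -0.49 against those under 2000, relative to the mean of its line, and in 4C11- replicate 3 by 0.41, and the part of this in the value of Myo5a was not tested. The difference of 1.17 between 4C11+ and melan-a was not called (adjusted p = 0.185), except when 4C11- replicate 1 was left out of the shared estimate of the spread (adjusted p = 0.0161).

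Mlph (chromosome 1: 90915085-90951142, plus strand), the linker mutated in leaden mice, was at 6.92 and 5.05 log2 CPM in melan-a, at 5.08, 4.93 and 5.08 in 4C, at 5.19, 4.92 and 4.86 in 4C11- and at 6.68, 6.53 and 7.67 in 4C11+. 4C and 4C11- were level (difference -0.04, 95% interval -0.98 to 0.90), and the melan-a libraries lay one with the mesenchymal-like lines and one with 4C11+. Mlph rose by 1.97 ± 0.43 from 4C11- to 4C11+ (3.91-fold, adjusted p = 0.0049). Whether it was called against melan-a depended on the library. The difference of 4C was -0.96 (adjusted p = 0.228), and -1.90 (adjusted p = 0.0124) without replicate 3, whereas that of 4C11+ was 0.97 (adjusted p = 0.196) and 1.91 (adjusted p = 0.0174) without replicate 2. Replicate 2, in which Mlph was high, is the melan-a library in which Rab38, Rab32, Rab27a and Myo5a were lower and the leukocyte marker Cd68 higher.

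The BLOC-3 subunits, mutated in pale ear (Hps1) and light ear (Hps4) mice, were called in 0 of the 5 planned comparisons. Rab38 and Rab32, the GTPases that they activate, were each called in 4, and the genes were not tested against each other. Hps1 (chromosome 19: 42755105-42779978, minus strand) was at 5.41 and 5.07 log2 CPM in melan-a, at 5.36, 5.34 and 5.37 in 4C, at 5.29, 4.52 and 3.66 in 4C11- and at 5.51, 5.42 and 4.75 in 4C11+. It was tight in 4C and widely spread in 4C11-, whose range overlapped that of 4C11+. The difference of 0.74 between these lines was not called (adjusted p = 0.158), but was 1.14 without 4C11- replicate 1 (adjusted p = 0.0203). Hps4 (chromosome 5: 112343083-112378414, plus strand) was at 6.25 and 5.07 in melan-a, at 4.90, 5.23 and 5.27 in 4C, at 5.46, 5.26 and 4.99 in 4C11- and at 4.68, 4.52 and 4.78 in 4C11+. It was the only member whose 4C11+ libraries were all below those of every other line. The share of all genes that separate 4C11+ from every other line, in either direction, was not counted, so this describes the members only. None of its differences was called, that of 4C11+ being -1.001 from melan-a (adjusted p = 0.0686, 95% interval -1.74 to -0.26) and -0.58 from 4C11- (adjusted p = 0.173), although without melan-a replicate 3 the former was -1.59 (adjusted p = 0.00761). Both genes share exon bases with genes on the opposite strand, 241 for Hps1 with Gm16244 and 133 for Hps4 with Gm20636, and the sources do not say whether counting used the strand.

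Of the BLOC-2 subunits, Hps3 and Hps5 were called from 4C11- to 4C11+ and Hps6 was not. These genes were not tested against each other, and the interval of Hps6 given below holds the differences of both others. Hps3 (chromosome 3: 19995945-20035315, minus strand), the cocoa gene, was at 5.00 and 5.91 log2 CPM in melan-a, at 4.97, 4.75 and 4.76 in 4C, at 3.71, 4.79 and 4.97 in 4C11- and at 5.72, 5.49 and 5.97 in 4C11+. It rose by 1.24 ± 0.35 from 4C11- to 4C11+ (2.37-fold, adjusted p = 0.02), and the call was lost without 4C11+ replicate 1 or 3 (adjusted p = 0.0615 and 0.0619). Like Myo5a it was lowest in 4C11- replicate 1, and it is also long, with 9103 exon bases, of which 108 are shared with Cp on the opposite strand. Cp ran from -1.61 to 7.21 log2 CPM over the libraries, and the part of its reads in the values of Hps3 was not tested. Hps5 (chromosome 7: 46760466-46796064, minus strand), mutated in ruby-eye 2 mice, was at 5.69 and 5.58 in melan-a, at 4.55, 5.07 and 5.20 in 4C, at 5.53, 5.09 and 4.94 in 4C11- and at 5.95, 5.87 and 6.16 in 4C11+. The 4C11+ libraries were again above all others. Its rise from 4C11- to 4C11+ was 0.81 ± 0.25 (1.75-fold, adjusted p = 0.0303), a call lost when any 1 of 4C11- replicates 2 and 3 or of the 4C11+ libraries was left out, with adjusted p from 0.0647 to 0.0968. Hps6 (chromosome 19: 46003508-46006173, plus strand), the single-exon ruby-eye gene, was at 4.14 and 3.86 in melan-a, at 4.15, 3.69 and 3.57 in 4C, at 4.61, 3.79 and 3.71 in 4C11- and at 4.92, 5.20 and 3.69 in 4C11+. Its lines overlapped throughout, and the difference of 0.57 between 4C11+ and 4C11- was not called (adjusted p = 0.315, 95% interval -0.32 to 1.47).

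Counted by step of the model, calls among the members were fewest from 4C to 4C11- and most from 4C11- to 4C11+. The same order held for the calls over all genes. From melan-a to 4C, 2 of 10 fell (Rab38 and Rab32) and none rose, where 15.2% of all genes were called and 7.55% fell. The median difference of the members was -0.66, against -0.06 over all genes, and 4 members fell when melan-a replicate 3 was left out, with Mlph and Hps4 added. From 4C to 4C11-, 1 of 10 rose (Rab32), where 1.67% of all genes were called (238 genes, a count that ran from 93 without 4C replicate 2 to 320 without melan-a replicate 2) and 1.26% rose, and the members' median was 0.03 against 0.01. From 4C11- to 4C11+, 7 of 10 rose and none fell, where 31.1% of all genes were called and 15.6% rose. The members' median was 1.60 against 0.12, and between 5 and 8 members rose when single libraries were left out. With Rab38 at 3 reads, the medians were the same from melan-a to 4C and from 4C11- to 4C11+, and with its difference set at 0 from 4C to 4C11- the median was 0.054. Between 4C11+ and melan-a, the epithelial lines at either end of the model, 2 of 10 were higher in 4C11+ (Rab38 and Rab27a), where 15.9% of all genes were called and 8.39% were higher, and the medians were 0.54 and 0.03.

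**Figure D3:**
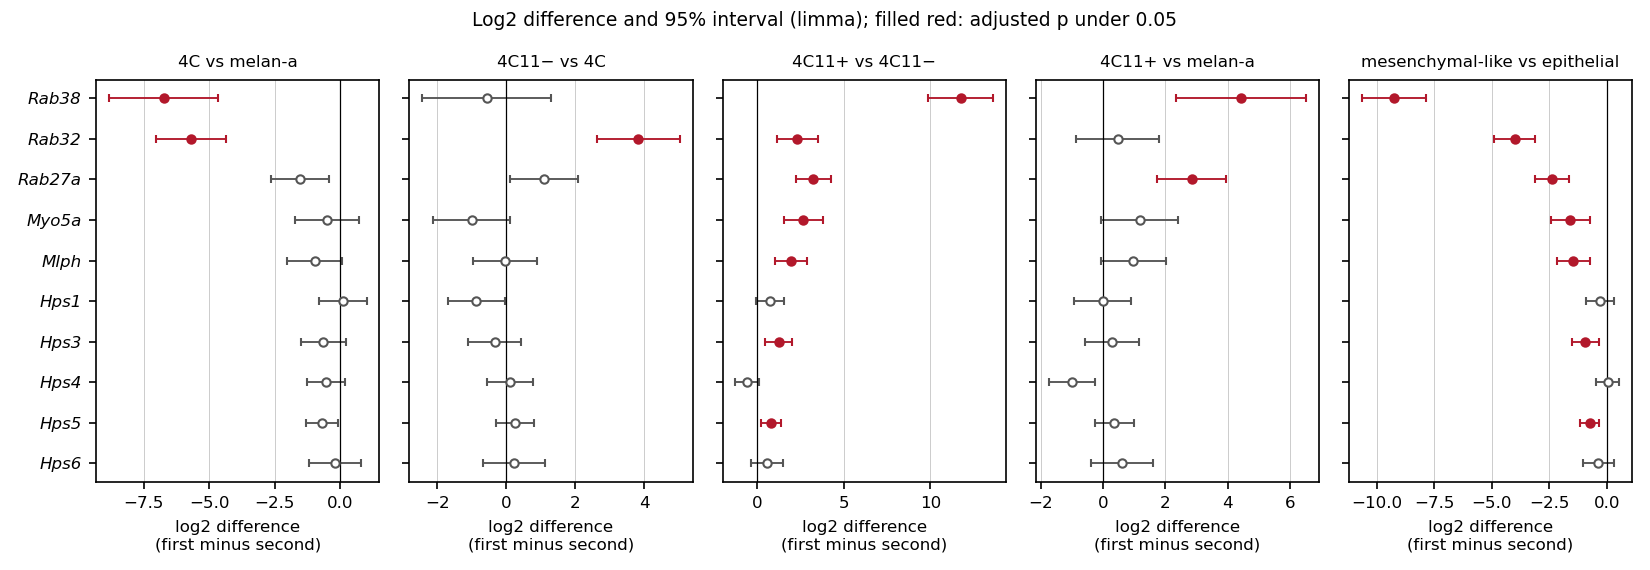
Log2 difference between lines (x axis, first line minus second) of each member (y axis) in the 5 planned comparisons, each panel with its own scale. Points are limma estimates, whiskers 95% intervals and filled red points those with an adjusted p under 0.05. Between 4C11+ and 4C11-, 7 of the 10 points are filled, and between 4C11- and 4C only Rab32 at 3.83 is.

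By phenotype, the mesenchymal-like lines (4C and 4C11-) were set against the epithelial lines (melan-a and 4C11+) with each line weighted equally. The SE and adjusted p here measure the spread between libraries of a line and not that between lines of a phenotype. Rab32, for example, was 3.83 higher in 4C11- than in 4C. The differences thus describe these lines and not the phenotypes in general. The same 7 members that rose from 4C11- to 4C11+ were lower in the mesenchymal-like lines, and none was higher, where 29.7% of all genes were called and 15.3% were lower. These comparisons share the libraries of 4C11- and 4C11+. Rab38 was 7.60 log2 units (194-fold) lower with these libraries set at 3 reads (fitted -9.24, adjusted p = 5.97e-07). Rab32 was lower by -4.01 ± 0.41 (adjusted p = 1.66e-05), Rab27a by -2.38 ± 0.34 (adjusted p = 0.000242), Myo5a by -1.59 ± 0.38 (adjusted p = 0.00777) and Mlph by -1.46 ± 0.32 (adjusted p = 0.0049). Hps3 was at -0.93 ± 0.27 (adjusted p = 0.0199, and 0.0935 without melan-a replicate 3) and Hps5 at -0.75 ± 0.19 (adjusted p = 0.0107). Rab38, Rab32, Myo5a, Hps3 and Hps5 did so without overlap between the libraries of the phenotypes, which 7.06% of all genes did in that direction, whereas Rab27a and Mlph overlapped through a melan-a library. Hps1 at -0.31, Hps4 at 0.03 and Hps6 at -0.38 were not called, and their 95% intervals ran from -0.92 to 0.30, from -0.47 to 0.52 and from -1.06 to 0.29. The median over the members was -1.20, against -0.09 over all genes.

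Setting neighbors in the order of the line means against each other gave few steps beyond the spread. For Rab38 the order was 4C11-, 4C, melan-a and 4C11+, and all steps but the first were called. For Rab32 it was 4C, 4C11-, melan-a and 4C11+, of which only the first was called. For Rab27a in that same order of lines, and for Myo5a and Mlph in the order of Rab38, no step was called except that of Rab27a from melan-a to 4C11+, although 4C11+ was above 4C by 4.34 ± 0.45 for Rab27a (adjusted p = 2.39e-05), by 1.67 ± 0.50 for Myo5a (adjusted p = 0.0257, and 0.0595 to 0.083 when any 1 of the 4C libraries or of 4C11+ replicates 1 and 3 was left out) and by 1.93 ± 0.43 for Mlph (adjusted p = 0.0052). For the 5 Hps genes, no step between neighbors was called, though Hps5 was higher in 4C11+ than in 4C by 1.05 ± 0.25 (adjusted p = 0.00796). The comparisons of 4C11+ with 4C and of 4C11- with melan-a were added after the values were seen. Of all genes, 31.7% were called between 4C11+ and 4C and 17.1% rose, and 6 of the members rose. Between 4C11- and melan-a, 13.6% of all genes were called and 6.05% were lower, and of the members only Rab38 was.

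Likeness between genes is given as a description over the 11 libraries, which share their lines. The Pearson correlation with Rab38 was 0.89 for Rab27a, 0.84 for Hps5, 0.82 for Hps3, 0.80 for Myo5a, 0.77 for both Mlph and Rab32, 0.48 for Hps6, 0.27 for Hps1 and -0.45 for Hps4. That of Rab32 was 0.83 with Rab27a and 0.74 with Hps5, but 0.59 with Mlph, 0.55 with Hps3 and 0.41 with Myo5a. Myo5a and Hps3 had the highest value among the members, at 0.95. Over all genes, the values closest to Rab38 were those of Dpysl3 (0.997), Pde3a (0.995) and Stx11 (0.994), and those closest to Rab32 were Cryl1 (0.990), E330009J07Rik (0.974) and Slc35g1 (0.972). Rab27a was followed most closely by Epdr1 (0.989), Rps7 (0.981) and Exd2 (0.972), and Myo5a by Rab11a (0.993), Wasl (0.979) and Map4k5 (0.976). Rab11a is a recycling endosome GTPase known to recruit myosin V motors.

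The genes that work beside the members were counted in the same comparisons, and the shares of all genes called in each are those given above. The melanosome enzymes and membrane proteins (12 genes with a value, among them the markers Dct, Tyr, Tyrp1, Pmel and Mlana) fell for 10 and rose for none from melan-a to 4C, were called for none from 4C to 4C11-, and rose for 10 and fell for none from 4C11- to 4C11+. In the mesenchymal-like lines 11 of 12 were lower, where 15.3% of all genes were, with a median of -7.30 (-6.17 with genes at 3 reads or fewer in all libraries of a group set at 3 reads). The fitted differences of Tyrp1 (-12.16), Dct (-11.84) and Mlana (-10.35) include libraries of 3 reads or fewer, and with these set at 3 reads the differences were -11.8, -11.5 and -9.71. In 4C11+ relative to melan-a, 3 were higher, Pmel by 9.23, Tyr by 7.997 and Slc24a5 by 2.83. This count of 3 in 12 stood where 8.39% of all genes were higher. Pmel forms the fibrils on which melanin is laid down, and like Rab38 these genes were above melan-a in every 4C11+ library. BLOC-1, which sorts cargo out of endosomes, rose in 5 of 8 subunits from 4C11- to 4C11+, where 15.6% of all genes rose, with Bloc1s3 at 2.02, Bloc1s2 at 1.69 and Snapin at 1.14, and was lower in 3 of 8 in the mesenchymal-like lines, where 15.3% of all genes were (Bloc1s2 -1.24, Bloc1s3 -1.22 and Bloc1s5 -0.97). No subunit was called from melan-a to 4C or from 4C to 4C11-, and Dtnbp1, at 1.07, was alone in being higher in 4C11+ than in melan-a.

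Of the adaptor subunits of AP-3 and AP-1 and the kinesin Kif13a (11 genes), 1 fell from melan-a to 4C, Ap3d1 by -1.03, where 7.55% of all genes fell, and 4 rose (Ap3d1 at 1.23, Ap1b1 at 1.01, Ap3s1 at 0.90 and Ap1s1 at 0.76) and Kif13a fell by 0.65 from 4C11- to 4C11+. The 5 of 11 called at that step and the 4 of 11 called by phenotype compare with 31.1% and 29.7% of all genes, so that the latter is near the share of all genes. Ap3d1, the delta subunit of AP-3 mutated in mocha mice, was lower in the mesenchymal-like lines by -1.13 without overlap between libraries, with Ap3s1 at -0.87 and Ap1b1 at -0.57, while Kif13a, which moves carriers toward melanosomes, was higher by 0.55. Ap1b1 (1.03) and Ap1s1 (1.01) were higher in 4C11+ than in melan-a. The HOPS tethering subunits (6 genes) showed 1 rise, Vps41 at 0.90, and 1 fall, Vps16 at -0.62, from 4C11- to 4C11+, Vps41 was lower in the mesenchymal-like lines (-0.58), and Vps16 was lower in 4C11+ than in melan-a (-0.99). No other HOPS subunit was called in these comparisons, and 2 of 6 is near the 31.1% of all genes called from 4C11- to 4C11+.

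Among the partners of Rab32 and Rab38 and fusion factors (9 of 10 genes with a value), Sgsm2, which inactivates both GTPases, was at 6.01 and 6.41 log2 CPM in melan-a, at 5.36, 5.15 and 5.51 in 4C, at 4.83, 4.19 and 4.18 in 4C11- and at 6.91, 6.91 and 6.59 in 4C11+, so that the phenotypes did not overlap. From 4C to 4C11-, where Rab32 rose, Sgsm2 differed by -0.94 without being called (adjusted p = 0.0944). It rose by 2.40 from 4C11- to 4C11+ (adjusted p = 2.62e-05) and was lower by -1.63 in the mesenchymal-like lines (adjusted p = 4.29e-05). Rab9, an endosomal GTPase that acts beside BLOC-3, went the other way, higher in 4C than in melan-a by 1.12, lower in 4C11+ than in 4C11- by -1.39 and higher in the mesenchymal-like lines by 1.25. In counts, this list had 1 rise and 1 fall (Stx12, -0.84) from melan-a to 4C, none from 4C to 4C11-, 2 rises (Sgsm2 and Rab11a, 1.15) and 1 fall from 4C11- to 4C11+, and none between 4C11+ and melan-a. The 3 of 9 at the step to 4C11+ are near the 31.1% of all genes called there. In the mesenchymal-like lines 4 were lower, Sgsm2, Lyst (-1.35), Rab11a (-0.67) and Rabggtb (-0.58), and Rab9 alone was higher.

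**Figure D4:**
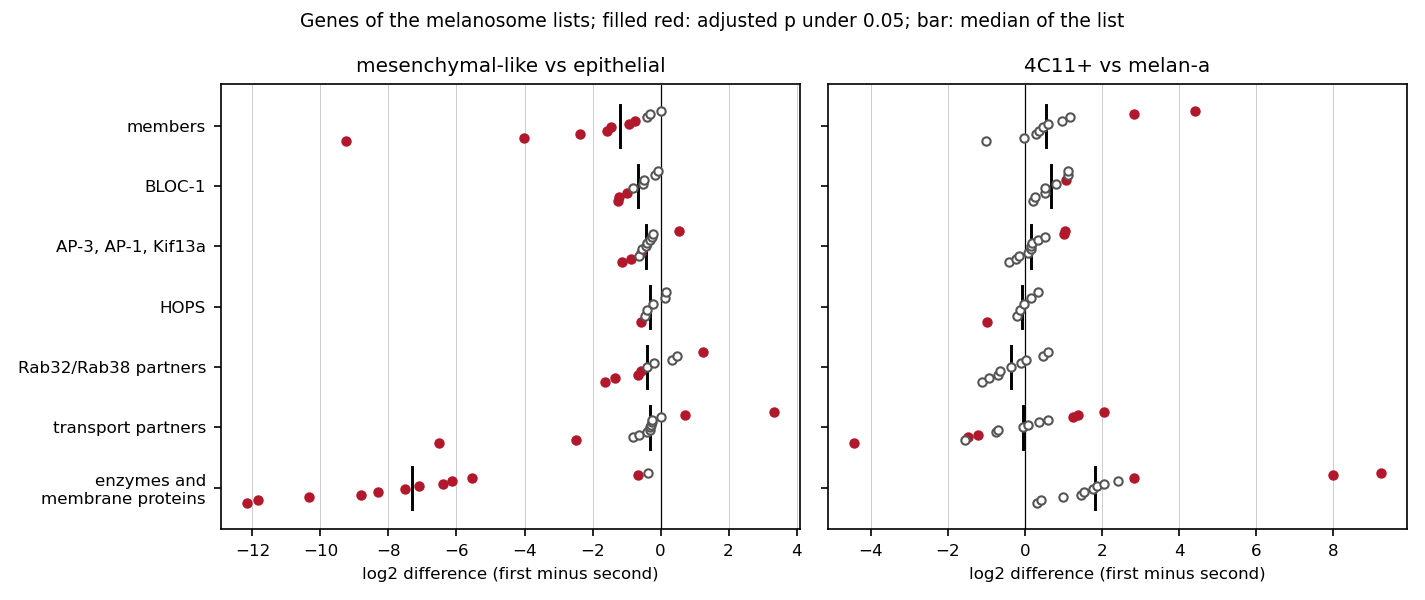
Log2 difference (x axis) of the members and of the genes of 6 related lists (y axis) of the mesenchymal-like from the epithelial lines (left) and of 4C11+ from melan-a (right). Each point is a gene, filled red where its adjusted p in limma was under 0.05, and bars are list medians. On the left, the median of the enzymes and membrane proteins lies at -7.30 and that of the members at -1.20, with the other lists between -0.65 and -0.30.

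Of the transport partners (13 of 17 genes with a value), 2 fell from melan-a to 4C and none was called from 4C to 4C11-. From 4C11- to 4C11+, 6 rose and 2 fell, where 31.1% of all genes were called and 15.6% rose. Sytl2, an effector of Rab27a, was at 5.55 and 6.14 log2 CPM in melan-a, at -1.98, -2.44 and -2.01 in 4C, at 0.69, -1.50 and -1.50 in 4C11- and at 4.02, 3.74 and 5.11 in 4C11+. It had 1 or 2 reads in the 4C libraries and 4 to 8 in those of 4C11-, and with each 4C library set at 3 reads was 7.10 log2 units lower in 4C than in melan-a (adjusted p = 8.37e-06), while it rose by 5.06 from 4C11- to 4C11+ (adjusted p = 8.53e-05). Mreg, melanoregulin, the product of the dilute suppressor gene, fell by 1.71 from melan-a to 4C (adjusted p = 0.00947), rose by 3.28 from 4C11- to 4C11+ (adjusted p = 2.31e-05) and was 2.05 higher in 4C11+ than in melan-a (adjusted p = 0.00406). Rab27b was lower in 4C11+ by at least 2.74 log2 units against 4C11- and by at least 1.92 against melan-a. The actin nucleators Spire1 and Spire2, which build tracks for myosin V on vesicles, moved apart, Spire1 rising by 1.07 and Spire2 falling by 1.18 from 4C11- to 4C11+. In 4C11+ relative to melan-a, 3 transport partners were higher (Mreg, Spire1 at 1.37 and Rab1a at 1.26) and 3 lower (Rab27b, Spire2 at -1.48 and Madd at -1.22). In the mesenchymal-like lines 2 were lower (Sytl2 at -6.08 and Mreg at -2.49) and 2 higher (Rab27b at 2.07 and Spire2 at 0.72), with libraries of 3 reads or fewer set at 3 reads, and 4 of 13 is near the 29.7% of all genes called.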

How the data were processed

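Strand-specific total RNA libraries, depleted of ribosomal RNA, were made by the authors from replicates of each line. The paper's methods name triplicates and do not say whether these were separate cultures. According to the paper's methods and the submitters' processing notes, reads were trimmed with Trimmomatic, aligned with STAR to GRCm38 (Ensembl 90), assigned to genes with Rsubread, kept only for genes reaching 1 CPM in 4 or more libraries and normalized with voom of limma. The deposited unit is the log2 CPM that the authors obtained in this way. All libraries share 1 highest value (13.69) and nearly 1 median, as after a quantile normalization, a step the sources used here do not name, so differences in the total cannot be seen. Whether counting used the strand is not given in the sources used here. Melan-a replicate 1 was not analysed here.

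The low values lie on steps of 1 read, and the depth of a library was read from its step at 40 reads. This depth is approximate if the values were quantile normalized. Depth limits values near 3 reads, at which lower libraries were also set. A mean per line was fitted to the log2 values of all 14272 genes in 11 libraries with limma 3.58.1 in R 4.3.3 (empirical Bayes with a mean-variance trend, two-sided, Benjamini-Hochberg over all genes), which was tested on simulated data, and 24 genes had no symbol. P-values measure the spread between replicate libraries of 1 line. Exon lengths and overlaps came from GENCODE for GRCm38, and promoter windows from RefSeq. Summaries were made in Python 3.11.15 with NumPy 2.4.6, pandas 2.3.3 and matplotlib 3.10.9.

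The members and lists were chosen with earlier results of these data known. All members are named in each comparison. Up to 3 called genes of each other list with the largest differences, and the 3 genes most correlated with each member spanning at least 2 log2 units, may be named. Tyr, Cdh5, Cd68 and Csf1r were named as markers, and Kif13a, Ap1s1, Rab11a, Rabggtb, Spire1, Spire2, Rab1a and Madd, where beyond this rule, after their values were seen. Replicate numbers come from the labels. Nothing in them says that a number marks a shared day or batch, and the numbers were not taken as pairs. Alternatives were a filter on low values, other variance models, only the lines compared, the replicate number as a block and each library left out.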

Additional observations from a re-analysis of the deposited data

Results flagged for a closer look

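With both lines of a phenotype joined, the 20 groups formed by the 10 members and 2 phenotypes were searched for a library far from the rest by Dixon's test at the 95% level, which by chance alone picks about 1 group in 20. It picked 3 values. Rab32 in melan-a replicate 2, at 4.85 log2 CPM, was far below the other epithelial libraries, which lay between 6.14 and 6.64. Myo5a in 4C11- replicate 1, at 4.73, was far below the other mesenchymal-like libraries, which lay between 6.76 and 7.35. Hps3 in the same 4C11- replicate 1, at 3.71, was far below the rest at 4.75 to 4.97. Both of these genes are long, and long genes were shifted by -0.49 against short genes in this library. The part of that shift in these values was not tested.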

How the results depend on the processing

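Every call of a member in the planned comparisons held, with its direction, under a filter for a mean log2 value of at least 1, median centring, a further quantile normalization, other variance models, a fit of only the lines compared and the replicate number as a block (126 of 126 refits), and in 201 of 209 refits without 1 library, the losses being those of Hps3 and Hps5 named above. Median centring and the further quantile normalization could change little, since the libraries already shared 1 highest value and nearly 1 median. Their refits are thus no test of the normalization. The count over all genes between 4C11- and 4C, 238, was 125 with the filter and 143 with only the lines compared, and ranged from 93 to 320 without 1 library, with 93 and 113 without 4C replicate 2 and 3, 97 without 4C11- replicate 2 and 155 without 4C11+ replicate 1. Between 4C11+ and melan-a, 2270 genes became 1446 with only the lines compared and 1089 to 2864 without 1 library, with 1089 and 1145 without 4C11+ replicate 1 and 2 and 1185 without melan-a replicate 2. Members called between 4C and melan-a ranged from 2 to 4, and those between 4C11- and melan-a from 1 to 2, where the block gave 2 and only the lines compared gave 843 genes in place of 1940. The replicate block made Rab27a called between 4C and melan-a (-1.74, adjusted p = 0.0127 in limma) and Rab32 between 4C11- and melan-a (-2.09, adjusted p = 0.0197), and turned Hps1 in the former to -0.067 and Hps6 in the latter to -0.17. It changed no other call of a member, and over all genes it gave 2265, 254, 4715, 1930 and 4566 calls in the planned comparisons, against 2167, 238, 4433, 2270 and 4232. Deviations of same-numbered libraries correlated from -0.23 to 0.39 (median 0.15 over 15 pairs, against -0.095 over 30 differently numbered pairs), and 4 of 11 libraries correlated best with one of their own number. Other differences that changed sign were not called. Without 1 library, the differences between 4C and melan-a ranged from -0.056 to 0.28 for Hps1 and from -1.12 to 0.062 for Hps4, the last being called at its lowest value, without melan-a replicate 3. Those between 4C11- and 4C ranged from -0.14 to 0.027 for Mlph, from -0.58 to 0.052 for Hps3, from -0.0088 to 0.23 for Hps4 and from -0.057 to 0.40 for Hps6. Those between 4C11+ and melan-a ranged from -0.43 to 1.36 for Rab32, from -0.19 to 0.22 for Hps1 and from -0.18 to 0.73 for Hps3, and Hps4 ranged from -0.27 to 0.32 between the phenotypes. In the added comparisons, 4C11- against melan-a ranged from -1.22 to 0.40 for Rab27a, from -1.01 to 0.17 for Hps4 and from -0.25 to 0.20 for Hps6, and 4C11+ against 4C from -0.27 to 0.11 for Hps1. In the latter, 5 to 7 members were called without 1 library, with Hps3 added without 4C11- replicate 1 (adjusted p = 0.0202) and Hps6 without 4C11+ replicate 3 (adjusted p = 0.0215), and Hps3 was also called in a limma fit of only the lines compared (adjusted p = 0.00895). The cause of these changes was not tested. The main limits are the 2 melan-a libraries, which differ widely, the few reads behind Rab38 and Rab32 in 4C, and 1 derivation per line.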
